A study of Homo sapiens with 6 samples.

Results

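The comparison of the METTL1 guide sgMETTL1.3 with the control guide sgNS was examined across genes in Mono-Mac-6, a line of human monocytic cells from acute myeloid leukaemia with the MLL-AF9 fusion. Its members were the genes that averaged 1 TPM or more in the 2 sgNS and the 2 sgMETTL1.3 libraries, which were 10927 of the 18806 gene symbols in the table. TPM is the estimated share of all transcripts that a gene takes in a library, corrected for transcript length, with an equal sum in every library. All groups came from 1 single-cell clone of Mono-Mac-6 that makes Cas9. Each group received its guide RNA by lentivirus, was selected with blasticidin at 10 µg/ml and hygromycin B at 200 µg/ml, and was harvested about 8 to 10 days after transduction. The groups were sgNS, sgMETTL1.3 and a further guide against METTL1, sgMETTL1.6, with 2 libraries each and 6 in all. All column names also hold the letters EV, which no label explains, and no guide sequence is given by the labels. A single Cas9 clone limits the model, since what is particular to that clone is shared by every library.

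METTL1 is the catalytic subunit, and WDR4 the partner, of the enzyme that places N7-methylguanosine in the variable loop of a set of tRNAs. That mark stabilises those tRNAs and helps the ribosome read their codons. Cas9 guided to a coding exon leaves small insertions or deletions, which can end a protein without removing its mRNA, so a TPM value checks neither the cut nor the protein. According to the submitters, loss of the protein was checked on western blots, none of which was analysed here.

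Cell identity was checked by markers. Of 10 markers of the monocytic line, CD33, LYZ, CD68, FCGR2A, ITGAM, MPO and SPI1 were above 1 TPM in every library, and CD14, CSF1R and CD4 were under 1 TPM in all 6. LYZ stood between 9206 and 11419 TPM, whereas CD14 reached at most 0.9 TPM. Under 1 TPM in all 6 libraries were 7 of 10 T and B cell markers (CD3D, CD3E, CD3G, CD2 and MS4A1 listed at 0), 10 of 11 erythroid and megakaryocytic markers and 10 of 11 epithelial, fibroblast and endothelial markers. The summed T and B cell level was 5.23 to 5.56 TPM in sgNS and 3.22 to 3.74 TPM in sgMETTL1.3, and the summed erythroid level 0.54 to 2.13 and 2.53 to 3.07 TPM. The latter rests on HBA1, listed at 0 in sgNS replicate 2, where its near-identical copy HBA2 stood at 1.44 TPM, and the summed pair stood at 1.34 and 1.44 TPM in sgNS and at 2.04 and 2.67 TPM in sgMETTL1.3. Their part in the results was not tested. The one high marker was PECAM1, an adhesion molecule of endothelium that leukocytes also carry, at 70.7 and 73.8 TPM in sgNS, 100.05 and 98.5 TPM in sgMETTL1.3 and 71.03 and 68.6 TPM in sgMETTL1.6. Sequencing depth cannot be read from TPM, so values carry no counting interval. Over genes of at least 100 TPM the 2 replicates lay a median of 2.45% apart for sgNS, 2.48% for sgMETTL1.3 and 3.17% for sgMETTL1.6. Separate cultures are not mentioned in the labels, so the p-values stand for the spread of these libraries alone, and that spread may be technical.

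The targeted gene came first. METTL1 (ENSG00000037897.16, GRCh38 chromosome 12, 57768471 to 57772793, read from the minus strand) stood at 15.4 and 13.9 TPM in the sgNS libraries and at 18.3 and 16.6 TPM in the libraries labelled sgMETTL1.3. Both values of the latter lay above both control values, and no loss of METTL1 mRNA was seen. In the libraries labelled sgMETTL1.6 the values were 11.2 and 11.7 TPM, below both controls. In limma, a linear model that borrows information on the spread from all genes, the log2 change of METTL1 from sgNS to sgMETTL1.3 was 0.24 ± 0.070 (SE, adjusted p = 0.011, Benjamini-Hochberg over all genes tested). This and every fold change below was computed from log2(TPM + 1), so the change of a low gene is understated. That call did not hold when low genes were kept in (adjusted p = 0.057), without sgNS replicate 2 or without sgMETTL1.3 replicate 1 (adjusted p = 0.12 each) and after centring by GC content (0.124 on the log2 scale, adjusted p = 0.16). An exact two-sided permutation test of 2 against 2 libraries gave p = 0.333, the smallest that its 6 regroupings allow. The difference between the guides was larger, 0.57 on the log2 scale (adjusted p = 0.00017). WDR4 (chromosome 21, 42843094 to 42879568), the partner subunit, stood at 21.5 and 26.1 TPM in sgNS and at 35.5 and 35.6 TPM in sgMETTL1.3, with no overlap (log2 0.57 ± 0.079, adjusted p = 4.2e-05). In sgMETTL1.6 WDR4 stood at 30.65 and 34.36 TPM, also above both control values (log2 0.44, adjusted p = 0.00045 in limma). Its guide difference did not pass the test (0.13, adjusted p = 0.25). Every direction below is drawn from the libraries as labelled.

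Across genes, sgMETTL1.3 libraries held less mRNA of amino acid synthesis and stress genes and of fatty acid and LXR genes, and more of heat shock chaperones, ribosome assembly factors and a small set of genes led by EPAS1 and C3. The lists among these moved the same way in sgMETTL1.6. Median log2 changes in sgMETTL1.3 and sgMETTL1.6 were -1.64 and -1.77 for stress response genes and -0.46 and -0.24 for fatty acid and LXR genes. They were 0.38 and 0.27 for heat shock chaperones and 0.33 and 0.23 for ribosome assembly factors. Of the 10927 genes, 6393 (58.5%) passed an adjusted p of 0.05. Of these 3742 (34.2% of the genes tested) were higher and 2651 (24.3%) lower. The counts of each list below stand against these shares. Most differences were small: 5240 of the calls lay under 0.5 on the log2 scale and 1463 under 0.2. A change of at least 1 was reached by 30 higher and 147 lower genes, and one of at least 0.5 by 497 and 656. The balance of directions depended on scaling. Median-ratio scaling gave 3056 higher and 3216 lower, rescaling without ribosomal protein genes 3079 and 3114, quantile normalization 3431 and 2839, and centring by GC content 3294 and 3341.

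**Figure D1:**
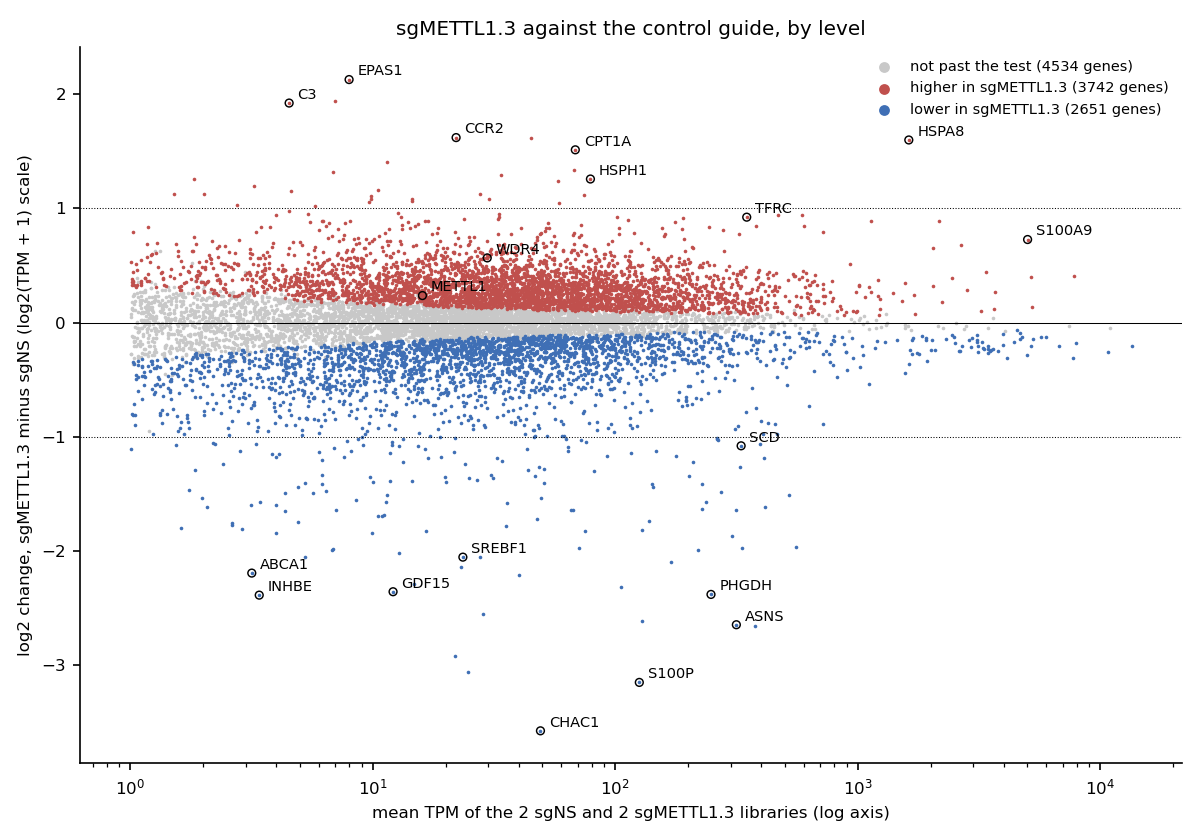
Each point is 1 of the 10927 genes tested, with its mean TPM over the 2 sgNS and 2 sgMETTL1.3 libraries (log axis) against its log2 change, sgMETTL1.3 minus sgNS, coloured by the limma call; dotted lines mark a change of 1. The falls reach deeper (CHAC1 at -3.58) than the rises (EPAS1 at 2.13), and METTL1 sits slightly above 0.

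The direct comparison of the guides holds no control library and asks what sets sgMETTL1.3 apart from the guide with lower METTL1 mRNA. It called 2507 genes (22.9%), of which 1722 (15.8%) were higher and 785 (7.18%) lower in sgMETTL1.3. List counts between the guides stand against these shares. Median-ratio scaling gave 811 higher and 1104 lower, rescaling without ribosomal protein genes 977 and 944, quantile normalization 802 and 972, and centring by GC content 1204 and 1272. The balance thus turned to lower under median-ratio scaling, quantile normalization and centring by GC content. Differences of at least 0.5 numbered 95 higher and 42 lower. Genes called against both sgNS and sgMETTL1.6 in the same direction are described here as standing apart; both tests use the same sgMETTL1.3 libraries, so the class is a description. Above both other groups stood 1095 genes (10.0%) and below both 525 (4.80%), a balance that also turned, to 480 and 751 after median-ratio scaling, 503 and 651 after quantile normalization, 571 and 626 without ribosomal protein genes and 689 and 798 after centring by GC content. The count of guide differences fell to 1220 without sgMETTL1.3 replicate 2, 1282 without its replicate 1 and 1451 without sgMETTL1.6 replicate 1, and the count standing apart to 781, 852 and 933 in the same order.

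The integrated stress response is the programme that ATF4 and its partners run when the initiation factor eIF2 is phosphorylated, and many of its targets supply amino acids. Of 51 genes on its list 47 were tested, and 46 were lower and 1 higher in sgMETTL1.3, with a median log2 change of -1.64 against 0.04 over all genes tested. CHAC1 (chromosome 15, 40952962 to 40956519), which degrades glutathione, stood at 88.8 and 94.4 TPM in the control libraries and at 6.79 and 6.72 TPM in sgMETTL1.3. The groups were far apart, at a log2 change of -3.58 ± 0.096 (SE, adjusted p = 7.2e-12). ASNS, the asparagine synthetase (chromosome 7, 97852118 to 97872542), stood at 546.7 and 544.7 TPM against 89.5 and 83.1 TPM, a log2 change of -2.65. The cysteine-making enzyme CTH stood at 40.4 and 38.5 TPM against 4.46 and 4.24 TPM. Serine synthesis enzymes fell with them, PSAT1 by 2.66 and PHGDH by 2.38 on the log2 scale, as did the mitochondrial enzymes PCK2 by 2.61 and ALDH1L2 by 2.55. ATF4 mRNA itself stood at 604.4 and 608.3 TPM in sgNS and 418.3 and 411.4 TPM in sgMETTL1.3, a log2 change of -0.55 (adjusted p = 9e-09). ALDH18A1, a proline synthesis enzyme, was the member that rose, by 0.35. CBS has a near-identical copy in GRCh38, so its value (log2 -2.10) is uncertain.

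The fall of this list was less deep in sgMETTL1.3 than in sgMETTL1.6 for many members: 26 of 47 were higher in sgMETTL1.3 in the direct test and 1 lower, against 15.8% and 7.18% of all genes tested. The other scalings gave between 22 and 24 higher and between 2 and 4 lower. GDF15, a secreted stress cytokine, stood at 20.5 and 21.4 TPM in sgNS, 2.96 and 3.63 TPM in sgMETTL1.3 and 1.29 and 1.03 TPM in sgMETTL1.6, without overlap between any groups, and the guides differed by 0.99 (adjusted p = 2.6e-05). For VEGFA, an angiogenic factor, the sgNS libraries held 206.8 and 217.7 TPM, those of sgMETTL1.3 63.2 and 62.2 TPM and those of sgMETTL1.6 38.1 and 38.7 TPM, with a guide difference of 0.69 (adjusted p = 4.2e-07). The cystine transporter SLC7A11 differed between the guides by 0.66 and SESN2, a leucine sensor, by 0.46. Other members differed little: PCK2 by 0.05 (adjusted p = 0.47) and CTH by 0.16 (adjusted p = 0.12).

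Genes that fell by at least 1 log2 were searched for the letters TGATGNAA, the core of the element that ATF4 binds together with C/EBP proteins, on both strands in the 250 bases before the start in RefSeq (GRCh38.p14). The letters were in 11 of 110 such promoters (10.0%) and in 1.33% of the promoters of all genes tested. Over all 27305 RefSeq promoters, those of genes not tested included, the share was 3.19%. In the nearest 100 bases the shares were 4.55%, 0.468% and 1.36%. The genes holding them were CHAC1, S100P, ASNS, SYTL1, NLRP12, LPO, BCAT1, TMEM154, HERPUD1, AARS and GOT1, of which S100P codes for a calcium-binding protein, BCAT1 for a branched-chain aminotransferase and AARS for the alanyl-tRNA synthetase. SYTL1, NLRP12, LPO, BCAT1, TMEM154, AARS and GOT1 are named only because they hold the letters. None of the 18 promoters of genes that rose by at least 1 held them, nor any of the 26 and 24 promoters of genes standing below or above both other groups by at least 0.5. Of the 37 promoters of stress response genes called lower, 3 (8.11%) held them in 250 bases and 1 (2.70%) in 100 bases. Most of these promoters thus did not hold them. The promoters of the 2 best known targets of the response are shown in the direction of the gene, with the matching letters in capitals: CHAC1 from chr15:40953221-40953470 (plus strand), where they begin 209 bases before the start on the opposite strand, and ASNS from chr7:97872409-97872658 (minus strand), where they begin 68 bases before it.
CHAC1: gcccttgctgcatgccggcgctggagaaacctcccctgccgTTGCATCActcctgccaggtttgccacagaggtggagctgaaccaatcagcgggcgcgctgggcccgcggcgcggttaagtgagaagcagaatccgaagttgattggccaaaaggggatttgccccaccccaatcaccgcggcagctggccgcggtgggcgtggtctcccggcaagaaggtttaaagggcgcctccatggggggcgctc
ASNS: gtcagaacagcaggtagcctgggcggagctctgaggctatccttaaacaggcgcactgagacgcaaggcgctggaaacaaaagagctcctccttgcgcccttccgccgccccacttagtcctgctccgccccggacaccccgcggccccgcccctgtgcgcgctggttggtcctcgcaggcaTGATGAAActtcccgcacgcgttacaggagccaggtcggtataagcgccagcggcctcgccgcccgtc

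Amino acid uptake and tRNA charging went with these enzymes in part. Of 24 tested amino acid transporters 13 were lower and 8 higher (median log2 -0.28), the latter near the 34.2% of all genes tested. Over all genes 24.3% were lower. The glycine transporter SLC6A9 fell by 1.99 and the neutral amino acid transporter SLC38A2 by 1.64, while the glutamate transporter SLC1A3 rose from 35.9 and 35.2 to 60.1 and 58.9 TPM (log2 0.73). Of 23 tested cytosolic aminoacyl-tRNA synthetases, which load tRNAs, 14 were lower and 7 higher (median log2 -0.55). The higher ones were again near the share of all genes tested. WARS, for tryptophan, stood at 526.9 and 537.04 TPM in sgNS and 138.4 and 131.1 TPM in sgMETTL1.3, a log2 change of -1.97. FARSA, a phenylalanyl subunit, rose by 0.50 and RARS, for arginine, by 0.41. The mitochondrial synthetases went the other way: 13 of 16 rose and 1 fell (median log2 0.28), led by LARS2 from 12.6 and 13.98 to 24.6 and 22.7 TPM (log2 0.79).

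Of 73 tested tRNA modification genes, METTL1 and WDR4 included, 38 were higher and 9 lower (median log2 0.15). TRMT61A, the catalytic subunit of a tRNA adenosine methyltransferase, stood at 8.64 and 8.69 TPM in sgNS, 14.8 and 14.1 TPM in sgMETTL1.3 and 10.95 and 12.1 TPM in sgMETTL1.6. It was higher in sgMETTL1.3 than in either other group (log2 0.68 and 0.30, adjusted p = 2.8e-06 and 0.0082). CTU2, which thiolates the wobble base, rose by 0.68 and did not pass the test between the guides (0.15, adjusted p = 0.23). TRMT11 fell by 0.44. In the direct test 22 members were higher in sgMETTL1.3 than in sgMETTL1.6 and 2 lower, but 9 and 4 after median-ratio scaling. Of 30 genes of RNA polymerase III, which transcribes tRNAs, 20 rose and 2 fell (median log2 0.18), among them GTF3C6 (0.52) higher and POLR1D (-0.30) lower.

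Genes of the ribosome split by compartment and role. Of 77 tested cytosolic ribosomal protein genes, 64 were lower and 1 higher, with a median log2 change of -0.19. Together they took 22.9% and 22.5% of the TPM in sgNS, 20.1% and 20.2% in sgMETTL1.3 and 22.0% in each sgMETTL1.6 library. The direct test between the guides placed 57 of the 77 lower in sgMETTL1.3 and none higher, and 52 stood below both other groups, against 4.80% of all genes. Other scalings gave between 40 (quantile normalization) and 72 lower. RPL31 stood at 1039 and 1031 TPM in sgNS, 780.2 and 776.4 TPM in sgMETTL1.3 and 924.7 and 914.2 TPM in sgMETTL1.6, all groups apart. RPS26, the member that rose (log2 0.79), has near-identical copies that can share its reads, and is uncertain. Since each library is scaled to 1 total, a fall of genes this abundant raises the TPM of the others, and a rise of the others lowers theirs. Which of these took place cannot be told from TPM and was not tested.

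Ribosome assembly factors rose: 53 of 63 tested were higher and 2 lower (median log2 0.33). UTP20, a factor of the small subunit processome, went from 9.4 and 9.67 to 19.3 and 17.5 TPM (log2 0.88), and the histone and ribosomal protein chaperone GRWD1 rose by 0.78. WDR12 (-0.27) and NOP10 (-0.26) fell. Mitochondrial ribosomal proteins rose in 52 of 75 cases and fell in 5 (median log2 0.22, and 0.20 in sgMETTL1.6). MRPS6 stood at 115.2 and 109.3 TPM in sgNS and 198.0 and 202.2 TPM in sgMETTL1.3 (log2 0.83). Nuclear pore and transport genes rose in 34 of 51 cases and fell in 3. XPOT, the exporter of tRNAs, was among those that fell, from 442.6 and 438.5 to 303.1 and 287.5 TPM (log2 -0.58, adjusted p = 4.7e-08). Of the polyamine genes, the spermidine synthase SRM rose by 0.83 and differed from sgMETTL1.6 by 0.25 (adjusted p = 0.0027).

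Cytosolic heat shock chaperones, which fold new and damaged proteins, rose in 27 of 35 tested cases and fell in 3 (median log2 0.38). HSPA8 (chromosome 11, 123057489 to 123063230), the constitutive HSP70, stood at 791.5 and 819.99 TPM in sgNS and 2464 and 2426 TPM in sgMETTL1.3, and rose by 1.6 ± 0.028 on the log2 scale (SE, adjusted p = 1.1e-13). The exchange factor of HSP70 proteins, HSPH1, stood at 46.7 and 45.7 against 114.07 and 109.7 TPM (log2 1.26). The groups of both genes were far apart. HSPA1A rose by 0.93, but its sequence is near-identical to that of HSPA1B, so its value is uncertain. HSF2 (-0.15) and PTGES3 (-0.13) were called lower, and each lost the call under at least 1 alternative. Of this list 5 members were higher and 4 lower in sgMETTL1.3 than in sgMETTL1.6, and HSPA8 differed by 0.09 (adjusted p = 0.035). The mitochondrial HSP10, HSPE1, rose by 0.84, while its neighbours in the import and protease list, the import factor GRPEL2 and the protease LONP1, fell by 1.36 and 0.67.

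The heat shock element, to which HSF1 binds, was searched as 3 units of GAA and TTC in turn with 2 bases between units, on either strand. It was found in 3 of 22 promoters of chaperone genes called higher (13.6%). Of the promoters of all genes tested 0.301% held it, and of all 27305 RefSeq promoters 0.439%. In the nearest 100 bases it was in 2 of these 22 (9.09%), against 0.100% of genes tested. Of the 18 promoters of genes higher by at least 1 log2, 1 (5.56%) held it in 250 bases. The list was chosen as heat shock genes, and its members not called higher were not counted apart, so its share is a description. What part the element had in the rise was not tested. The promoter of HSPA8, chr11:123062137-123062386 (minus strand), holds 2 elements, which begin 230 and 55 bases before the start. That of CHORDC1, an HSP90 co-chaperone that was chosen after its values were seen, lies at chr11:90223050-90223299 (minus strand) and holds 3 overlapping matches between 60 and 50 bases before it. CHORDC1 stood at 27.7 and 25.95 TPM in sgNS and 43.5 and 40.1 TPM in sgMETTL1.3 (log2 0.62). Elements are in capitals and the sequences run in the direction of the gene.
HSPA8: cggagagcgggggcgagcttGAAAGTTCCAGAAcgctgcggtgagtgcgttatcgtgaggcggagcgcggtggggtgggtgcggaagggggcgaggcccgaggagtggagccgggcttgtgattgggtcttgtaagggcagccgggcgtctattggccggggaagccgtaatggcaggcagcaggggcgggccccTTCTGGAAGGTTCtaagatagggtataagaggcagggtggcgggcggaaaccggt
CHORDC1: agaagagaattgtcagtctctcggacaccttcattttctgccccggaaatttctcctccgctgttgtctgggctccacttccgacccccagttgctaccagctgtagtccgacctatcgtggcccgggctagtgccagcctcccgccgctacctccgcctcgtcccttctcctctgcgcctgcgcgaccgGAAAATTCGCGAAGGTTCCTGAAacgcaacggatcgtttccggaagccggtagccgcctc

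**Figure D2:**
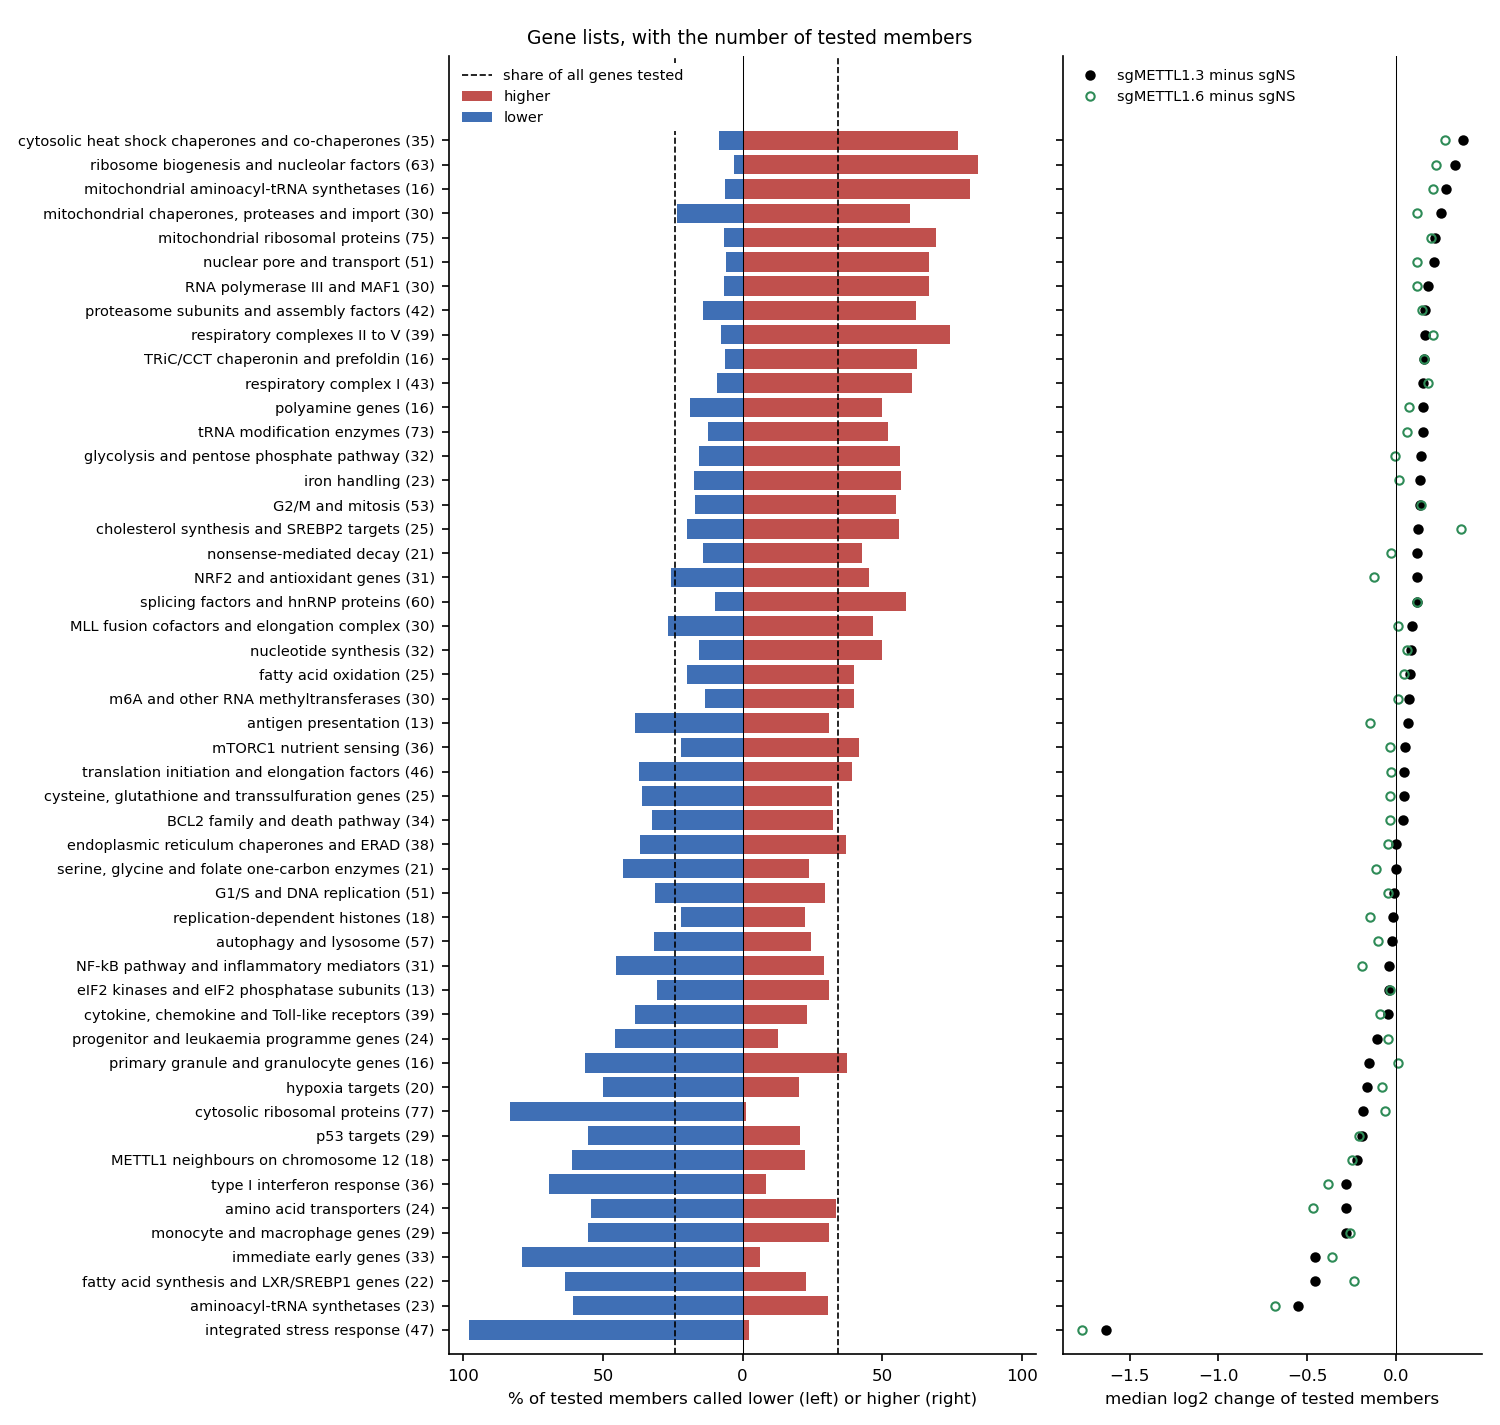
Left, bars give the percentage of tested members of each of 50 gene lists called lower (blue) or higher (red) in sgMETTL1.3 against sgNS, with dashed lines at the shares of all genes tested (34.2% higher, 24.3% lower). Right, points give the median log2 change of the members for each guide, which share the sgNS libraries; the integrated stress response list has the lowest median (-1.64) and heat shock chaperones the highest (0.38).

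Lipid genes separated the guides. SREBP1, made from SREBF1, drives fatty acid synthesis, LXR receptors switch on SREBF1 and the cholesterol exporter ABCA1 when sterols are high, and SREBP2 drives cholesterol synthesis when they are low. SREBF1 (chromosome 17, 17810399 to 17837002) stood at 37.3 and 39.9 TPM in sgNS, 8.02 and 9.03 TPM in sgMETTL1.3 and 25.0 and 24.5 TPM in sgMETTL1.6. No groups overlapped, and the log2 difference of sgMETTL1.3 was -2.06 ± 0.064 from sgNS (SE, adjusted p = 2.8e-11) and -1.44 from sgMETTL1.6 (adjusted p = 3.5e-08). ABCA1 (chromosome 9, 104781002 to 104928237) stood at 5.77 and 5.92 TPM in sgNS, at 0.5 and 0.49 TPM in sgMETTL1.3 and at 1.96 and 2.09 TPM in sgMETTL1.6 (log2 -2.19 and -1.02). Of the list of fatty acid synthesis and LXR or SREBP1 genes 22 were tested, of which 14 were lower and 5 higher than control (median log2 -0.46). Between the guides 11 were lower in sgMETTL1.3 and 5 higher (11 or 12 and 3 under the other scalings). Of the 22, 10 stood below both other groups, against 4.80% of all genes tested.

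Desaturases led the rest of that list. SCD, which makes monounsaturated fatty acids, stood at 443.6 and 454.9 TPM in sgNS, 213.5 and 210.6 TPM in sgMETTL1.3 and 350.2 and 347.4 TPM in sgMETTL1.6. FADS2 stood at 288.2 and 300.95 TPM, 124.1 and 127.7 TPM, and 214.9 and 224.3 TPM. Both were lower in sgMETTL1.3 than in either other group without overlap, with guide differences of -0.72 and -0.80 (adjusted p = 3.5e-08 and 5.5e-08). MYLIP, an LXR target that degrades the LDL receptor, was lower in sgMETTL1.3 than in sgNS by 0.84 on the log2 scale, and sgMETTL1.6 did not pass against sgNS (-0.07, adjusted p = 0.2). LPCAT3, a phospholipid remodelling enzyme, differed between the guides by -0.48 and ACSL3, an acyl-CoA synthetase, by -0.54. Against this pattern, APOE, also an LXR target, was lower than control in both (log2 -0.65 in sgMETTL1.3) and higher in sgMETTL1.3 than in sgMETTL1.6 by 0.47. FASN, the fatty acid synthase, was 0.14 higher than control (adjusted p = 0.029) and 0.19 lower than in sgMETTL1.6 (adjusted p = 0.015). LPCAT3, ACSL3, APOE and FASN were chosen after their values were seen.

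Of 25 tested cholesterol synthesis and SREBP2 genes 14 were higher and 5 lower in sgMETTL1.3 than in sgNS (median log2 0.12). In the direct test 16 were lower in sgMETTL1.3 than in sgMETTL1.6 and none higher (17 to 20 lower under the other scalings). SQLE, the squalene epoxidase, stood at 100.9 and 101.9 TPM in sgNS, 139.5 and 138.3 TPM in sgMETTL1.3 and 157.7 and 155.8 TPM in sgMETTL1.6. INSIG1, which holds SREBP in the endoplasmic reticulum, stood at 158.5 and 155.6 TPM, 111.2 and 111.8 TPM, and 190.1 and 184.7 TPM. It was below control in sgMETTL1.3 (log2 -0.49) and above it in sgMETTL1.6, and the guides differed by -0.74 (adjusted p = 5.5e-08). STARD4, a sterol carrier, differed between them by -0.67 (adjusted p = 8.2e-06). CPT1A (chromosome 11, 68754620 to 68844410), which admits fatty acids to mitochondria for oxidation, was higher in sgMETTL1.3, at 33.7 and 36.4 TPM in sgNS, 103.9 and 99.8 TPM in sgMETTL1.3 and 58.1 and 60.1 TPM in sgMETTL1.6. Its log2 difference was 1.51 from control and 0.77 from sgMETTL1.6, and all groups were apart. Of 25 fatty acid oxidation genes, CPT1A included, 10 were higher and 5 lower than control, near the shares over all genes tested (34.2% and 24.3%).

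**Figure D3:**
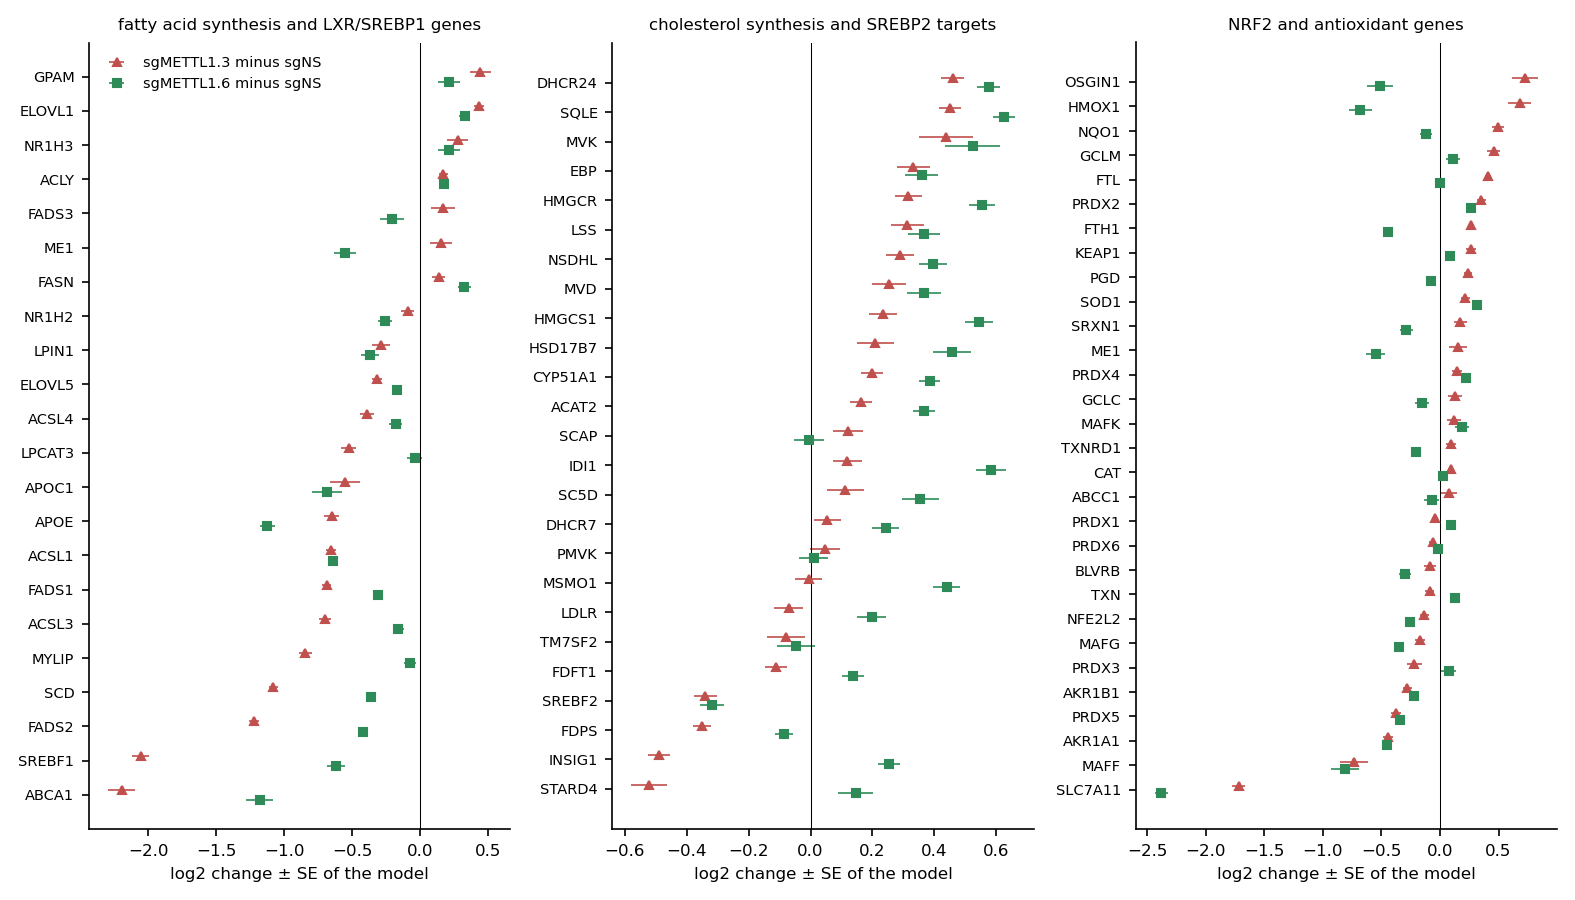
Log2 change from sgNS of the tested members of 3 lists, 1 of them left out, for sgMETTL1.3 (triangles) and sgMETTL1.6 (squares), with bars of 1 SE of the model; both guides share the sgNS libraries. SREBF1 and ABCA1 lie lowest in the left panel with sgMETTL1.3, INSIG1 and STARD4 lie on opposite sides of 0 in the middle panel, and HMOX1 and OSGIN1 do so in the right panel.

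NRF2 is the transcription factor that induces antioxidant enzymes once its inhibitor KEAP1 lets it go. Of 31 tested genes of this list 14 were higher and 8 lower than control (median log2 0.12), the latter near the 24.3% of all genes tested. Over all genes 34.2% were higher. Between the guides 17 were higher in sgMETTL1.3 and 3 lower, against 15.8% and 7.18% of all genes tested. Of the list 10 stood above both other groups, against 10.0% of all genes. The other scalings gave 14 to 16 higher and 3 to 8 lower, the 8 after centring by GC content. HMOX1, which degrades haem, stood at 13.1 and 14.8 TPM in sgNS, 22.8 and 23.0 TPM in sgMETTL1.3 and 7.15 and 9.58 TPM in sgMETTL1.6. It was above control in sgMETTL1.3 (log2 0.68, adjusted p = 6.7e-05) and below it in sgMETTL1.6 (-0.68), and the guides differed by 1.36 (adjusted p = 2.2e-06). OSGIN1, an oxidative stress inhibitor of growth, stood at 2.06 and 1.67 TPM, 3.98 and 3.48 TPM, and 1.0 and 1.01 TPM, with a guide difference of 1.24. NQO1, a quinone reductase, stood at 36.4 and 36.4 TPM, 50.7 and 52.8 TPM, and 34.7 and 32.0 TPM (guide difference 0.62).

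PGD, a pentose phosphate enzyme that supplies NADPH, was higher in sgMETTL1.3 than in sgMETTL1.6 by 0.32. Ferritin, the iron store, followed: FTH1 stood at 3339 and 3369 TPM in sgNS, 4055 and 4017 TPM in sgMETTL1.3 and 2455 and 2466 TPM in sgMETTL1.6, and FTL was higher by 0.41 than in each other group. Against the list, SLC7A11 fell (log2 -1.72), as did MAFF (-0.74). NFE2L2, the gene of NRF2, was 0.14 lower than control. KEAP1 was 0.26 higher. SLC48A1, a haem transporter of the lysosome, stood at 7.52 and 7.82 TPM in sgNS, 13.4 and 13.9 TPM in sgMETTL1.3 and 6.83 and 7.28 TPM in sgMETTL1.6. TFRC, the transferrin receptor, rose from 243.4 and 237.3 to 469.6 and 444.4 TPM (log2 0.92) and differed between the guides by 0.01 (adjusted p = 0.87). NQO1, PGD, FTH1, FTL, NFE2L2 and KEAP1 were chosen after their values were seen.

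Lysosomal and sugar genes leaned the same way between the guides. The lean is shared by all genes tested, of which 15.8% were higher and 7.18% lower in sgMETTL1.3 than in sgMETTL1.6. Of 57 autophagy and lysosome genes 14 were higher and 18 lower than control, against 34.2% and 24.3% of all genes tested. Of the same list 21 were higher and none lower in sgMETTL1.3 than in sgMETTL1.6 (15 and 3 after median-ratio scaling). The autophagosome genes ULK1 (-0.63), MAP1LC3B (-0.56) and GABARAPL1 (-0.41) fell, and the lysosomal genes GLA (0.56), a galactosidase, and MCOLN1 (0.46), a calcium channel, rose. Autophagosome and lysosomal members of the list were not counted apart. MCOLN1 stood at 8.76 and 9.72 TPM in sgNS, 12.6 and 13.6 TPM in sgMETTL1.3 and 9.71 and 9.77 TPM in sgMETTL1.6. Of 32 glycolysis and pentose phosphate genes 18 rose and 5 fell, and 11 stood above both other groups, against 10.0% of all genes tested. GPI, the glucose phosphate isomerase, rose by 0.49, and the lactate exporter SLC16A3 by 0.39, while the glucose transporter SLC2A3 fell from 17.3 and 17.6 to 5.3 and 5.12 TPM (log2 -1.57). After median-ratio scaling the guide difference of this list fell from 14 higher and 2 lower to 7 and 2.

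Among the genes that stood apart most, ranked by the smaller of the 2 differences, C3 (chromosome 19, 6677704 to 6730562), the central complement protein, came first among the higher ones. It stood at 1.42 and 1.19 TPM in sgNS, 7.61 and 7.86 TPM in sgMETTL1.3 and 1.72 and 1.95 TPM in sgMETTL1.6 (log2 1.92 from control, 1.62 between the guides). EPAS1 (chromosome 2, 46293667 to 46386703), the hypoxia factor HIF-2 alpha, stood at 2.32 and 2.36 TPM, 14.4 and 12.9 TPM, and 6.38 and 7.08 TPM. No groups overlapped, with differences of 2.13 ± 0.083 from control (SE, adjusted p = 2.7e-10) and 0.92 between the guides. Of 20 tested hypoxia targets, EPAS1 included, 10 were lower and 4 higher than control. TRIM16L stood at 8.45 and 8.96 TPM, 17.8 and 17.1 TPM, and 7.75 and 7.67 TPM, so that sgMETTL1.6 overlapped neither group. MS4A6A (guide difference 0.83), the monoacylglycerol lipase MGLL (0.75), the sterol hydroxylase CYP27A1 (0.89) and the semaphorin SEMA6B (0.74) completed the 10 with CPT1A, SLC48A1 and OSGIN1. Below both stood, beside the lipid genes, FAM69C (-1.02 between the guides), TMEM135 (-0.93), LY96, the partner of TLR4 (-0.86), VAT1L (-0.74) and FOSB (-0.71).

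**Figure D4:**
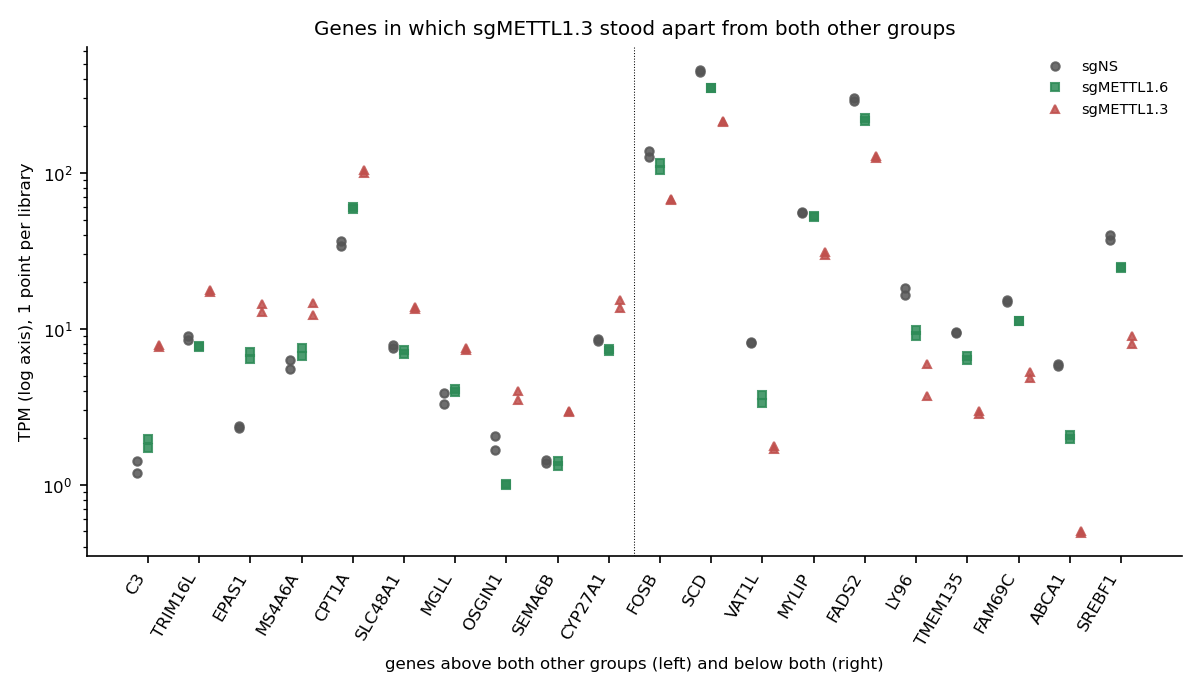
TPM on a log axis, 1 point per library, of the 10 genes above both other groups (left of the dotted line) and the 10 below both (right) that were named by rule. The triangles of sgMETTL1.3 lie outside both other groups for each gene, as with C3 at 7.61 and 7.86 TPM and SREBF1 at 8.02 and 9.03 TPM; the genes were chosen for this.

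Some of the highest rises had no guide difference by the test and others did. ADAMTS1, a secreted protease, stood at 21.8 and 21.2 TPM in sgNS, 70.02 and 66.2 TPM in sgMETTL1.3 and 65.1 and 63.9 TPM in sgMETTL1.6 (log2 1.62 from control, 0.08 between the guides, adjusted p = 0.25). SPR, the sepiapterin reductase, rose by 1.40, with a guide difference of 0.17 (adjusted p = 0.11). P2RY2, a nucleotide receptor, ENC1, and CNR2, a cannabinoid receptor, rose by 1.29 to 1.34 and were also higher than in sgMETTL1.6, by 0.49, 0.66 and 0.70. WNT7B, a secreted ligand, rose from 2.6 and 1.99 to 11.6 and 11.7 TPM (log2 1.94) and differed between the guides by 0.34 (adjusted p = 0.026). Of the 30 genes higher by at least 1, 23 stood above both other groups (10.0% of all genes tested did) and 7 did not differ between the guides by the test. Of the 147 lower by at least 1, 64 had no guide difference by the test, 44 were less low in sgMETTL1.3 and 39 were lower in it. Both sets were chosen by the sgMETTL1.3 libraries, which also enter the guide test, so these counts are a description. SMN2 is among the deepest falls by value, at 15.3 and 69.1 TPM in sgNS and 14.2 and 0.08 TPM in sgMETTL1.3, but reads can be shared with the near-identical SMN1, so the value is uncertain. The summed level of the pair was 179.5 and 180.9 TPM in sgNS and 213.99 and 206.2 TPM in sgMETTL1.3.

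Both myeloid lists had more lower members than the 24.3% of all genes tested, and higher members near the 34.2%. Of 29 tested monocyte and macrophage genes 16 were lower and 9 higher (median log2 -0.28). In the direct test 14 were higher in sgMETTL1.3 than in sgMETTL1.6 and 2 lower, against 15.8% and 7.18% of all genes tested. The other scalings gave 14 higher and 2 or 3 lower. Above both other groups stood 8, against 10.0% of all genes, and below both stood 2, against 4.80%. CEBPB, a monocytic transcription factor also on the stress list, stood at 101.9 and 97.4 TPM in sgNS and 31.6 and 30.9 TPM in sgMETTL1.3 (log2 -1.64). The integrin ITGAX fell by 1.15 and the costimulatory ligand CD86 by 1.08. CCR2, a monocyte chemokine receptor, rose from 9.89 and 10.8 to 33.3 and 34.4 TPM (log2 1.62). IRF8, a transcription factor of monocytes and dendritic cells, rose by 0.82. S100A8 and S100A9, the subunits of calprotectin, chosen after their values were seen, stood in sgMETTL1.3 above both other groups, by 0.68 and 0.73 over control and by 0.52 and 0.50 over sgMETTL1.6. Of 16 granule and granulocyte genes 9 were lower and 6 higher. S100P fell from 223.5 and 230.0 to 22.5 and 26.9 TPM (log2 -3.15), MPO, the myeloperoxidase, fell by 0.58 and PRTN3, the proteinase, rose from 318.7 and 322.3 to 599.8 and 633.6 TPM (log2 0.94), higher than in sgMETTL1.6 by 0.49.

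Of 24 progenitor and leukaemia genes 11 were lower and 3 higher. GATA2 fell by 0.81 and MEF2C by 0.67, both transcription factors, and CD38, a surface ectoenzyme, rose from 8.14 and 8.56 to 17.6 and 16.7 TPM (log2 0.96) and stood 0.69 above sgMETTL1.6. Of 30 MLL fusion cofactors 14 rose and 8 fell, the latter near the 24.3% of all genes tested. The chromatin reader PSIP1 fell by 0.84. The fusion partner gene MLLT3 fell by 0.41, and gene-level TPM cannot separate reads of the fusion from those of the normal allele.

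Immediate early genes, which cells switch on within minutes of a signal or of handling, were lower in 26 of 33 cases and higher in 2 (median log2 -0.46). Of the 33, 12 stood below both other groups, against 4.80% of all genes tested. FOSB stood at 125.5 and 136.9 TPM in sgNS, 67.5 and 66.6 TPM in sgMETTL1.3 and 104.1 and 116.1 TPM in sgMETTL1.6. DUSP1, a phosphatase of MAP kinases, fell by 0.99 and stood 0.48 below sgMETTL1.6. The part of handling in these values was not tested. Type I interferon genes were lower in 25 of 36 tested cases and higher in 3 (median log2 -0.28, and -0.38 in sgMETTL1.6). CXCL10, a chemokine, stood at 18.7 and 15.6 TPM in sgNS and 4.88 and 4.29 TPM in sgMETTL1.3 (log2 -1.70), and GBP4 rose by 0.59. Of 31 genes of the NF-kB list 14 were lower and 9 higher, with IL23A (-1.50) and CXCL8 (-1.14) lowest. Over all genes tested 24.3% were lower and 34.2% higher. C5AR1, the receptor for complement C5a, fell by 1.76 and IL6R, the interleukin 6 receptor, rose by 0.88.

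Of 53 G2/M genes 29 were higher and 9 lower (median log2 0.14), as the checkpoint kinase BUB1 at 0.55. Of 51 G1/S and replication genes 15 were higher and 16 lower, near the shares over all genes tested (34.2% and 24.3%). The licensing factor CDT1 fell by 0.61 and the primase subunit PRIM1 by 0.62. Targets of p53 were lower in 16 of 29 cases and higher in 6 (median log2 -0.19, and -0.21 in sgMETTL1.6). Among the lower were GDF15, SESN2 and BBC3 (-1.33), a BH3-only protein. The first pair is also on the stress list. Respiratory complex I genes rose in 26 of 43 cases and fell in 4, and those of complexes II to V rose in 29 of 39 and fell in 3. Of the latter 13 were lower in sgMETTL1.3 than in sgMETTL1.6 and none higher. Of 60 splicing factors 35 rose and 6 fell. U2AF1 (0.64) has a near-identical copy in GRCh38 and is uncertain.

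Neighbours of METTL1 on chromosome 12 gave 11 lower and 4 higher of 18 tested. The 3 deepest falls, INHBE (-2.39), DDIT3 (-1.17) and MARS (-1.03), are genes of the stress response or of tRNA charging. The median change of all 564 genes of chromosome 12 was -0.002, within the range over chromosomes from -0.050 on chromosome 4 to 0.151 on chromosome 21. The median was above 0 on 15 of 23 chromosomes, and on 9 after median-ratio scaling or without ribosomal protein genes.

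Differences moved with base composition. Over 5 equal classes of the genes by GC content of the longest transcript in GENCODE 29, the median log2 change from sgNS to sgMETTL1.3 went from -0.072 in the lowest class (31.3% to 40.7% GC) through 0.016, 0.077 and 0.104 to 0.120 in the highest (58.2% to 73.8%). For sgMETTL1.6 against the same controls the lowest and highest classes stood at -0.045 and 0.032, and for the guide difference at -0.028 and 0.098. The share called higher in sgMETTL1.3 went from 16.4% in the lowest class to 43.5% in the highest. The part of GC content in the calls was not tested beyond centring the values by it, which left 3294 higher and 3341 lower genes.

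**Figure D5:**
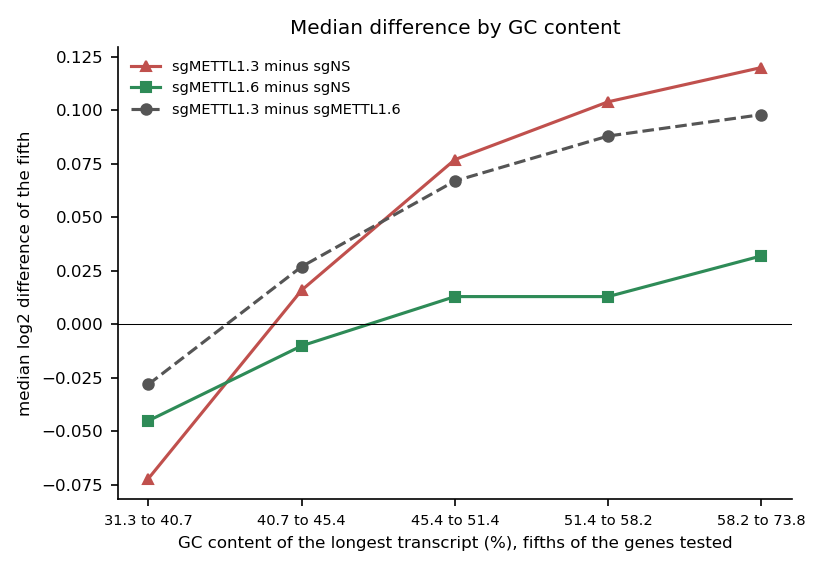
Median log2 difference over 5 equal classes of the genes tested by GC content of the longest transcript, for sgMETTL1.3 and sgMETTL1.6 against sgNS and for the difference between the guides. The line of sgMETTL1.3 runs from -0.072 to 0.120, and that of sgMETTL1.6 from -0.045 to 0.032.

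At the lower bound of the members, C15orf48 lay just inside with a mean of 1.0025 TPM and SOBP just outside with 0.9975 TPM. A gene that is high in 1 of the 2 groups can pass this bound through that group alone.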

How the data were processed

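RNA was measured in 6 libraries of Mono-Mac-6 cells. RNA was extracted with a phenol reagent, named TRIzol in the protocol and QIAzol in the design text, and made into stranded poly(A) libraries with a KAPA kit, per the labels' protocols. The deposited values are TPM per gene symbol, computed by the authors; RSEM 1.2.31 and the genome build GRCh38 are named in the submitters' processing notes. Which aligner and annotation were used is not given in the sources used here. Deposited TPM values sum to the same in every library and keep no depth.

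Values were taken as log2(TPM + 1). Genes that averaged 1 TPM or more over the 4 sgNS and sgMETTL1.3 libraries were fitted with limma 3.58.1 in R 4.3.3, with a variance trend and all 3 groups of 2 libraries sharing 1 estimate of the spread (3 residual and 9.91 prior degrees of freedom), and p-values were adjusted by Benjamini-Hochberg over all 10927 genes at a threshold of 0.05. The 3 contrasts were sgMETTL1.3 and sgMETTL1.6 against sgNS and sgMETTL1.3 against sgMETTL1.6. The procedure was tested on simulated data. Genes were named by rule: both subunits of the enzyme, the 12 strongest rises and 12 strongest falls against sgNS, the 10 highest and 10 lowest of those apart from both other groups, and in each list the 3 with the largest change in the direction of most calls and 2 in the other. The members, the lists and the tests were chosen with earlier results of these data known. Positions came from GENCODE 29 names for 18655 symbols (361 by alias), and promoters from RefSeq for 14757. A few named genes are not reported here. Of 1816 list symbols 1769 were in the table, 69 of them under an older symbol. Alternatives were other pseudocounts (0.5 and 5), no filter or a mean of at least 5 TPM, median-ratio scaling, quantile normalization, rescaling without ribosomal protein genes, the 4 libraries alone, no variance trend, a replicate block, each library left out, a promoter window of 100 bases, and centring in 20 bins of GC content, which was chosen after seeing the data.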

Additional observations from a re-analysis of the deposited data

Results flagged for a closer look

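The results in this section are differences between the guides under the same contrast, by the limma test of the difference itself, which called 2507 genes. With 2 libraries a group no search for outlying libraries was made. All values are log2 differences, sgMETTL1.3 minus sgMETTL1.6, on the log2(TPM + 1) scale. METTL1 itself differed by 0.57.

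Among the 12 highest rises over control, the guides differed for C3 (1.62), EPAS1 (0.92), CPT1A (0.77), CNR2 (0.70), ENC1 (0.66), CCR2 (0.54), P2RY2 (0.49), WNT7B (0.34) and HSPA8 (0.09), all higher in sgMETTL1.3. Among the 12 deepest falls they differed for GDF15 (0.99), CHAC1 (0.50), SESN2 (0.46), ALDH1L2 (0.33), PSAT1 (0.16) and ASNS (0.13), where sgMETTL1.3 was the less low, and for S100P (-0.24), where it was the lower.

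The other genes named for standing above both groups were OSGIN1 (1.24), TRIM16L (1.08), CYP27A1 (0.89), SLC48A1 (0.86), MS4A6A (0.83), MGLL (0.75) and SEMA6B (0.74). Those named for standing below both were SREBF1 (-1.44), ABCA1 (-1.02), FAM69C (-1.02), TMEM135 (-0.93), LY96 (-0.86), FADS2 (-0.80), MYLIP (-0.77), VAT1L (-0.74), SCD (-0.72) and FOSB (-0.71). These 2 sets were chosen for their differences. The 12 rises and 12 falls were chosen by the sgMETTL1.3 libraries, which also enter the guide test, so those lists too are a description.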

How the results depend on the processing

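Of 260 named genes other than METTL1, 242 kept the direction and call of sgMETTL1.3 against sgNS under all 17 alternatives. Another 18 lost that call under at least 1 and none reversed. The guide differences of single genes are not part of these counts. METTL1 lost its call with no filter (0.237), without sgNS replicate 2 (0.168), without sgMETTL1.3 replicate 1 (0.169) and after centring by GC content (0.124), and ran from 0.168 to 0.306 with a library left out. Calls against control ran from 5119 to 6624 with a library left out. The guide difference fell from 2507 genes to 1023 with no filter and 1398 with no variance trend, and ran from 1220 to 2491 with a library left out. Genes apart from both other groups fell from 1620 to 675 with no filter and 913 with no variance trend, and ran from 781 to 1652. The cause was not tested. Chromosome medians above 0 fell from 15 to 9 after median-ratio scaling and to 9 without ribosomal protein genes, and ran from 14 to 19 with a library left out. List medians above 0 numbered 30 of 50, 26 after median-ratio scaling, 26 without ribosomal protein genes, 28 after quantile normalization and 25 after GC centring, and ran from 29 to 32 with a library left out. The share of promoters with TGATGNAA fell from 10.0% to 4.55% in 100 bases, a shorter window. Genes lower or higher by at least 1 numbered 86 and 13 with a pseudocount of 5.

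Medians of lists that lay near 0 changed sign. For median-ratio scaling, quantile normalization, no ribosomal protein genes and GC centring, cysteine and glutathione genes gave -0.006, -0.013, -0.004 and -0.017. For the same settings without quantile normalization, translation factors gave -0.003, -0.001 and -0.016 and BCL2 family genes -0.010, -0.008 and -0.043. Antigen presentation gave -0.013 at a mean of at least 5 TPM, -0.033 after GC centring and from -0.008 (without sgMETTL1.3 replicate 1) to 0.069 (without its replicate 2) with a library left out, mTORC1 genes -0.003 after GC centring, receptors 0.003 at a mean of at least 5 TPM, and G1/S genes from -0.027 to 0.003 with a library left out, above 0 without sgNS replicate 2 (0.003) or sgMETTL1.3 replicate 2 (0.001). The medians of eIF2 kinases (-0.041, 0.012 after GC centring), endoplasmic reticulum chaperones (0.0001, as low as -0.047 after median-ratio scaling), serine and folate enzymes and histones also crossed 0, and no direction is given for them.

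Deviations of same-numbered libraries correlated at 0.0104 for sgNS with sgMETTL1.3, 0.21 for sgNS with sgMETTL1.6 and 0.139 for the 2 METTL1 guides. The labels state no block, so the numbers were not taken as pairs in the main fit. Whether a number marks a shared batch was not tested. A replicate block raised the calls against control from 6393 to 6924 (4032 higher, 2892 lower) and the guide difference to 3615. Depth is unknown, and low genes carry an unstated counting error.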
